A study of Mus musculus with 3 samples.

Results

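The genes described here are 46 components of the BMP, TGF-beta and activin pathways: their ligands, secreted antagonists, receptors, Smad transducers and commonly used target genes. They were taken from a fixed list of symbols, which was chosen with earlier results of these data known. All 46 were found on the array by matching probe accessions to RefSeq transcripts, through 65 probes out of 24342 named probes for 16998 genes. Expression was measured at embryonic day 11.5 in the primordium of the esophagus, of the stomach and of the intestine, all from mouse embryos of the outbred ICR strain, and the labels give no mutation or treatment for any group. Each organ was dissected, and its total RNA was labelled with Cy3 and hybridised to 1 Agilent 1-colour expression array. The labels do not state how many embryos gave each sample, and their extraction text speaks of stomach for every sample, so the organ was taken from the title and tissue label.

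BMPs, TGF-betas and activins are secreted dimers that bring together type I and type II serine/threonine kinase receptors on the cell surface. BMP receptors phosphorylate Smad1 and Smad5, TGF-beta and activin receptors phosphorylate Smad2 and Smad3, and either group enters the nucleus with Smad4. Extracellular antagonists such as noggin and follistatin bind the ligands, and inhibitory Smads damp the response from inside the cell. In the developing gut, BMP ligands and antagonists made by mesenchyme and epithelium are known for their part in separating the foregut tube from the airway, in stomach and pyloric patterning and in growth of the intestinal mesenchyme.

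Levels are given as log2 of the background-subtracted signal relative to the array's own 75th percentile, so 0 is the signal of a probe at that percentile. Differences are subtractions of these levels, and 1 unit is 2-fold. Levels of different genes come from different probes and are not set against each other. With 1 array per organ there is no replicate, no test was possible, and precision is limited by having 3 arrays in all. As a yardstick, probes for the same gene differed by a median SD of 0.25 in stomach minus esophagus, 0.46 in intestine minus esophagus and 0.31 in intestine minus stomach. Repeated spots of a probe on an array varied by a median SD of 0.0737 to 0.0864. The 3 comparisons share arrays, and the third is the difference of the other ones. In tissue RNA, fewer cells of a type and less RNA per cell cannot be told apart.

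Each array carried 43379 spots that were not controls, and 67.9% to 74.0% of them were well above background. Most organ markers followed the labels. Among the esophagus markers, Pax9 was at −0.72 in esophagus and −3.66 in stomach and was not well above background in intestine, but Klf5 was higher in stomach (1.82) than in esophagus (0.71). Sox2, listed for both foregut organs, was at 1.04 in esophagus and 0.57 in stomach. The stomach regulator Barx1 was at 4.43 in stomach against 0.87 in esophagus, and Cdx2 was well above background in stomach and intestine but not in esophagus. Cdx1, 1 of 6 intestinal markers, was well above background in stomach only, and the other intestinal markers were highest in intestine. Markers of neighbouring tissues also differed between arrays. The 7 heart genes summed to 112 multiples of the 75th percentile in esophagus, against 3.11 in stomach and 3.76 in intestine, and 7 of 7 were well above background in each organ. The sum of 4 trachea and lung genes was 9.3, 0.546 and 0.054 in the same order, with 4, 2 and 1 of them well above background, and the genes missing in stomach were Nkx2-1 and Sftpc. The sum of 5 skeletal muscle genes was 3.91, 0.603 and 1.22, with 5 of 5 well above background in each organ and 5 of 5 at least 2-fold lower in stomach than in esophagus. The sum of 7 liver genes was 11.1, 9.88 and 88.4, with 6, 6 and 7 of them well above background.

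Across the pathway, 21 of 46 genes were at least 2-fold apart in some comparison and 25 stayed within 2-fold in all of them. These were 7 of 8 BMP ligands, 2 of 4 activin and GDF11 ligands, 1 of 3 TGF-beta ligands, 5 of 8 antagonists, 3 of 9 receptors and 3 of 7 targets, while all 7 Smads stayed within 2-fold (Smad2 and Smad5 passed it between intestine and esophagus with median centring). A probe well above background on every array was available for 45 of the genes, and Bmp2 fell short of that in stomach only. Of these 45 genes, 20 spanned at least 2-fold over the 3 organs (44.4%, against 22.7% of the 12864 genes of the array measured in the same way). A span of at least 4-fold was seen for 7 of them (15.6%, against 5.22%): Bmp3, Inhba, Inhbb, Fst, Sostdc1, Bmper and Msx2. The list was chosen with earlier results of these data known, so these larger shares cannot be read as a property of the pathway. After normexp correction Bmp3 and Msx2 did not reach 4-fold in any comparison. The further probe of Inhbb did not reach it either, with a largest difference of −1.53. Among the 20, the level was highest in esophagus for 9, in stomach for 4 and in intestine for 7.

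**Figure D1:**
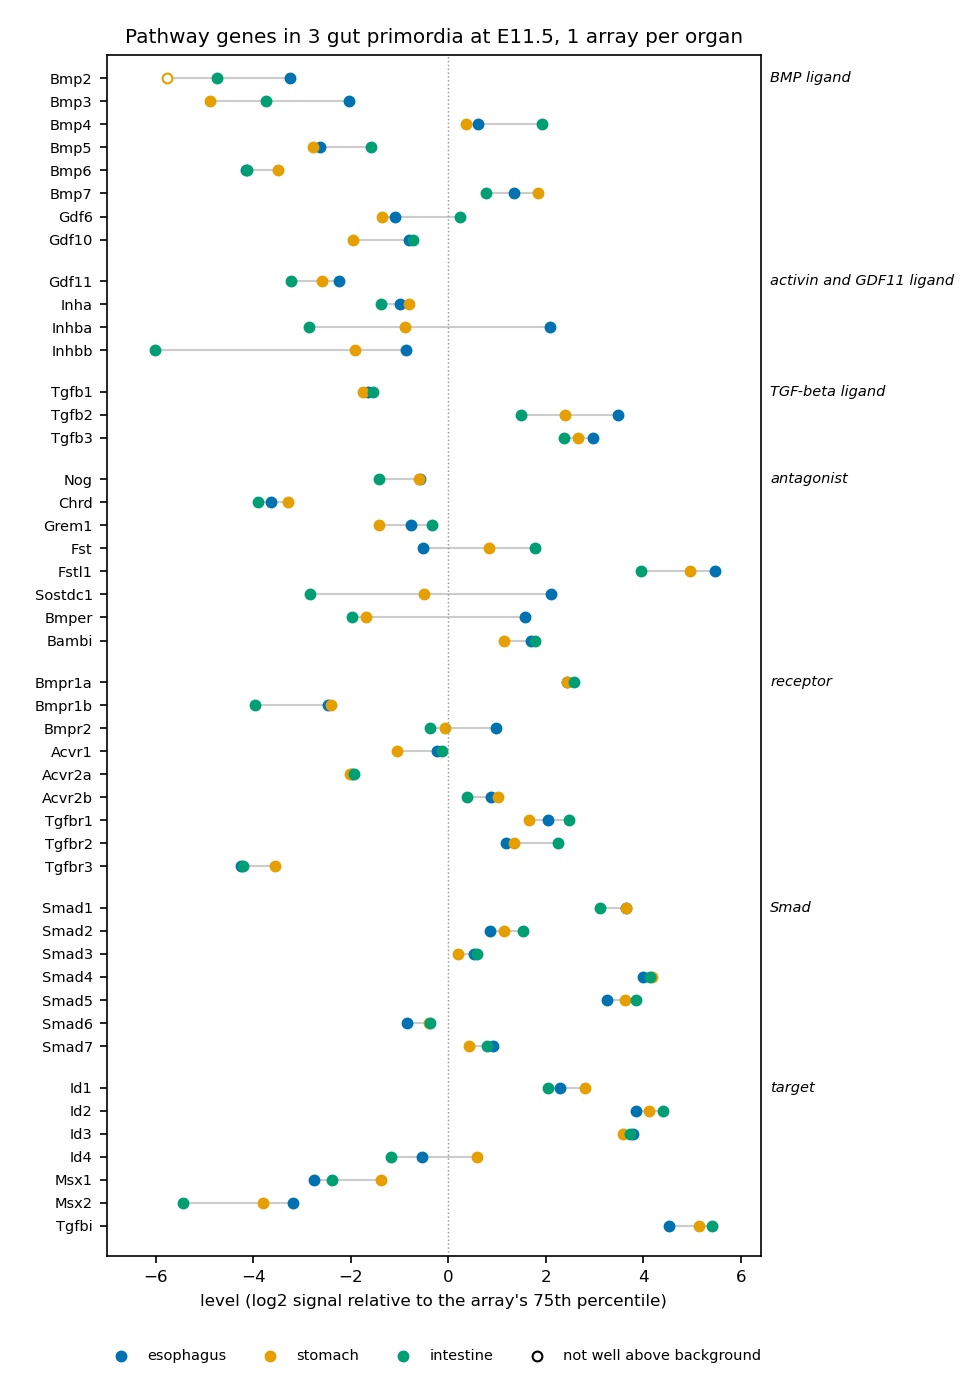
Level of each of the 46 pathway genes in esophagus (blue), stomach (orange) and intestine (green), as log2 signal relative to the 75th percentile of each array, grouped by role; each point is 1 array and the grey line spans the 3 organs. The widest spans are those of Inhbb, Inhba and Sostdc1, the Smad points lie close together, and the open point is Bmp2 in stomach, which was not well above background.

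The activin subunits gave the largest differences among the ligands. Inhba and Inhbb encode the beta A and beta B subunits that pair to form activins. Inhba was at 2.09 in esophagus, −0.88 in stomach and −2.87 in intestine. Against esophagus it was 7.87-fold lower in stomach and 31.1-fold lower in intestine, and the step from stomach to intestine was 3.95-fold. Every step exceeded the spread between probes, and the difference between intestine and esophagus lay between −4.96 and −4.39 under all 8 processing alternatives. The filters, the probe mean, kept outlier spots and the deposited values left it at −4.96. The check therefore rests on normexp correction, median centring and quantile normalization.

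Inhbb was at −0.87 in esophagus, −1.91 in stomach and −6.02 in intestine. Against esophagus it was 2.06-fold lower in stomach and 35.6-fold lower in intestine. After normexp correction, in which each spot's background is modelled and an offset added, the intestinal difference was −2.89 in place of −5.15. Its intestinal level was close to the lowest signal that counted as well above background there, which was −6.97. The size of the intestinal difference depended on the probe: the further probe gave levels of −4.17, −5.14 and −5.69 in esophagus, stomach and intestine, a difference of −1.53 for intestine minus esophagus in place of −5.15. For intestine minus stomach the further probe gave −0.55, within 2-fold, in place of −4.11. Both probes put Inhbb in the same order along the gut. The stomach minus esophagus difference of Inhbb was within 2-fold with normexp correction (−0.59), median centring (−0.83) and quantile normalization (−0.96).

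Inha and Gdf11, the other ligands of this group, stayed within 2-fold in every comparison. Inha, whose product pairs with the beta subunits to form inhibin, was at −0.99 in esophagus, −0.80 in stomach and −1.39 in intestine. Gdf11, a ligand of axial patterning that signals through the activin receptors, was at −2.25, −2.59 and −3.23. Its difference between intestine and esophagus, −0.98, came close to 2-fold.

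Among the TGF-beta ligands only Tgfb2 passed 2-fold. It was at 3.47 in esophagus, 2.38 in stomach and 1.48 in intestine, with stomach 2.13-fold and intestine 3.98-fold below esophagus. With each array centred on its median the first of these differences was −0.88. Tgfb3 took the same order with smaller steps, at 2.97, 2.66 and 2.36, and its largest difference was −0.61. Tgfb1 was at −1.65, −1.76 and −1.55, and its largest difference, 0.21, was below the spread between probes.

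The BMP ligands split by organ, with Bmp4, Bmp5 and Gdf6 highest in intestine, Bmp2 and Bmp3 highest in esophagus and Bmp7 highest in stomach. Bmp4, the main BMP ligand of gut mesenchyme, was at 0.61 in esophagus, 0.36 in stomach and 1.92 in intestine. Intestine stood 2.94-fold above stomach and 2.49-fold above esophagus, while stomach and esophagus differed by −0.24, less than the spread between probes. Gdf6, a ligand of the GDF5 subgroup, followed the same order at −1.11, −1.36 and 0.24, with intestine 3.02-fold above stomach and 2.53-fold above esophagus. Bmp4 and Gdf6 kept at least 2-fold in these comparisons under all 8 alternatives, a check that again rests on normexp correction, median centring and quantile normalization. Bmp5 was at −2.64, −2.78 and −1.59, with intestine 2.27-fold above stomach and 2.06-fold above esophagus. Its further probe gave 1.25 and 1.40, but after normexp correction the values were 0.42 and 0.42. Intestine also had the highest sum of the 7 liver genes, 88.4, all of them at least 2-fold above both other organs, and the part of liver tissue in the levels of Bmp4, Bmp5, Gdf6 or Fst was not tested.

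Bmp3, an atypical member that can oppose other BMPs, was at −2.05 in esophagus, −4.89 in stomach and −3.75 in intestine. It was 7.17-fold lower in stomach than in esophagus (after normexp correction, −1.004 in place of −2.84) and 3.25-fold lower in intestine. Bmp2 was at −3.25 in esophagus and −4.74 in intestine and was not well above background in stomach, at −5.78. The stomach value was taken as a bound, here the dim probe's own level. On this scale Bmp2 stood 5.78-fold higher in esophagus, and 2.05-fold higher in intestine, than in stomach. These are not firm minimum values, as other processing gave smaller ones. The stomach minus esophagus difference was −0.45 after normexp correction and −2.06 in the deposited values. The intestine minus stomach difference was 0.56 in the deposited values. Intestine was 2.82-fold below esophagus, which became −0.98 with quantile normalization. Esophagus was also the array with the highest heart, lung and skeletal muscle marker sums given above, and the part of those tissues in the levels of Bmp2, Bmp3, Inhba, Inhbb and Tgfb2 was not tested.

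Bmp7, an epithelial and mesenchymal ligand, was at 1.35 in esophagus, 1.83 in stomach and 0.78 in intestine. Intestine was 2.08-fold below stomach, and its further probe gave −1.03, but with median centring the difference was −0.77 and with normexp correction −0.90. Gdf10, the relative of Bmp3, was at −0.80, −1.95 and −0.73, with stomach 2.22-fold below esophagus and 2.33-fold below intestine. Both Gdf10 differences were within 2-fold after normexp correction (−0.77 and 0.78). Bmp6 was at −4.15, −3.49 and −4.13 and within 2-fold in each comparison, although intestine minus stomach was −1.02 after normexp correction.

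**Figure D2:**
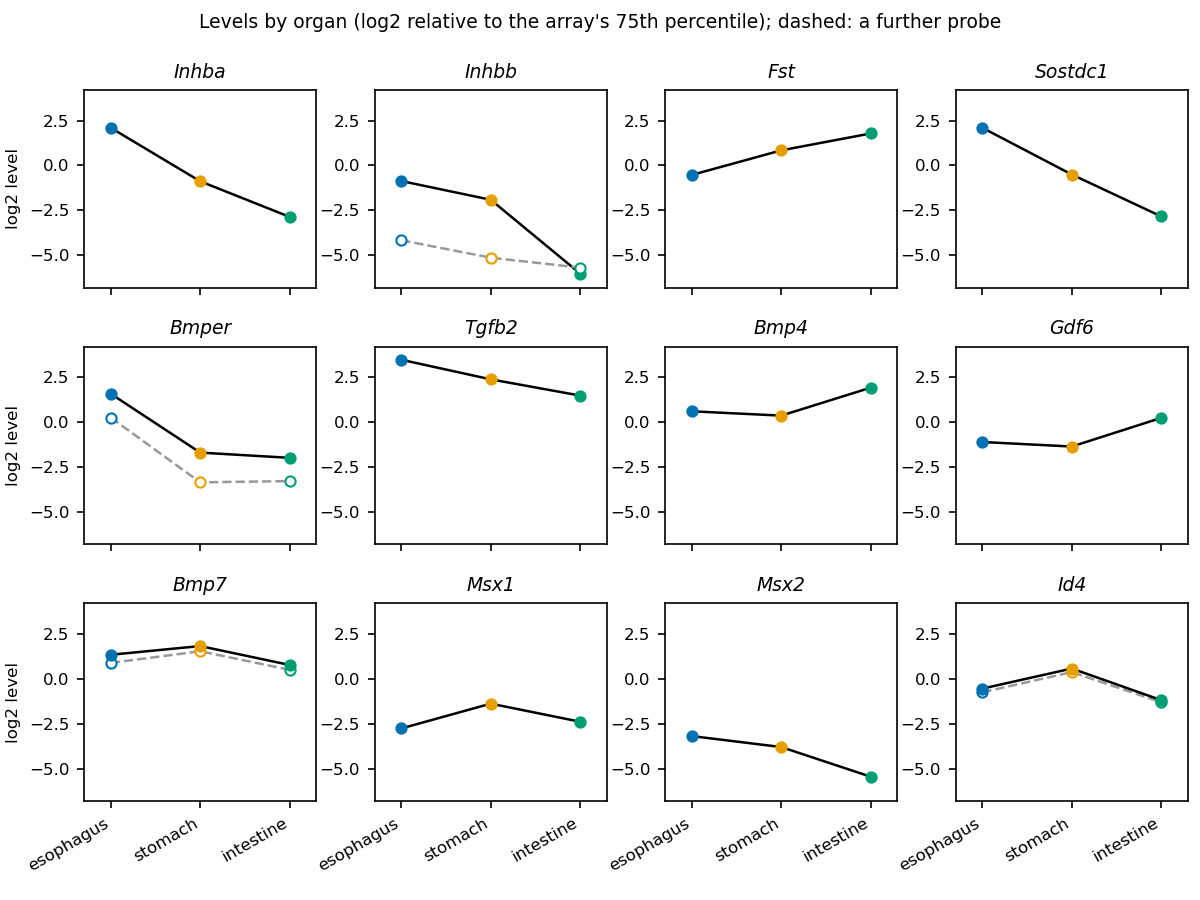
Level of 12 pathway genes in esophagus, stomach and intestine, as log2 signal relative to the 75th percentile of each array; filled points and the solid line are the probe used, open points and the dashed line a further probe of the gene. Inhba, Sostdc1 and Tgfb2 step down from esophagus to intestine and Fst steps up, and the further probe of Inhbb steps down less steeply than the probe used.

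Among the antagonists, Fst differed in the direction opposite to the activin subunits. Fst encodes follistatin, a secreted protein that binds activin and, less tightly, several BMPs. It was at −0.53 in esophagus, 0.84 in stomach and 1.78 in intestine. It was 2.58-fold higher in stomach and 4.95-fold higher in intestine than in esophagus. Both differences stayed above 2-fold under the 8 alternatives, of which normexp correction, median centring and quantile normalization changed the values appreciably. Intestine and stomach differed by 0.94, just within 2-fold, and by 1.23 with median centring.

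Sostdc1 and Bmper were highest in esophagus. Sostdc1, a secreted BMP and Wnt antagonist, was at 2.09 in esophagus, −0.51 in stomach and −2.84 in intestine. Against esophagus, stomach was 6.06-fold and intestine 30.5-fold lower, and intestine was 5.04-fold below stomach. Bmper, which encodes a chordin-like protein that binds BMPs, was at 1.58 in esophagus, −1.70 in stomach and −1.99 in intestine. Against esophagus, stomach was 9.67-fold and intestine 11.8-fold lower, whereas intestine and stomach differed by −0.29. Its further probe gave −3.61 and −3.53 for the differences from esophagus. Sostdc1 and Bmper were highest in the esophagus array, which also had the highest heart, lung and skeletal muscle marker sums. The part of those tissues was not tested.

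Fstl1, a secreted follistatin-like glycoprotein, was at 5.46 in esophagus, 4.95 in stomach and 3.95 in intestine, with intestine 2.87-fold below esophagus. Its difference of −1.01 between intestine and stomach was −0.72 with median centring. Fstl1 was likewise highest in the esophagus array with its heart, lung and skeletal muscle markers, whose part was not tested. Grem1, a mesenchymal BMP antagonist, was at −0.78, −1.42 and −0.35, and intestine was 2.10-fold above stomach (0.69 after normexp correction). The classical antagonists stayed within 2-fold: Nog, encoding noggin, was at −0.59, −0.60 and −1.43, and Chrd, encoding chordin, was at −3.65, −3.30 and −3.90. Bambi, a membrane pseudoreceptor that is also induced by BMP signalling, was at 1.70, 1.14 and 1.77.

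Most receptors differed little between organs. Bmpr1a, a type I BMP receptor, was at 2.42 in esophagus, 2.43 in stomach and 2.58 in intestine, and the type II activin receptor gene Acvr2a was at −1.99, −2.03 and −1.93. Bmpr1b, another type I BMP receptor, was at −2.46, −2.40 and −3.96, which put intestine 2.95-fold below stomach and 2.83-fold below esophagus. Bmpr2, a type II BMP receptor, was at 0.97, −0.07 and −0.39, with stomach 2.06-fold and intestine 2.55-fold below esophagus. With median centring these Bmpr2 differences were −0.83 and −0.86, within 2-fold, and the part of the esophagus-high heart, lung and skeletal muscle markers was not tested.

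The type I receptor Acvr1 was lowest in stomach, at −0.23, −1.06 and −0.13, and Acvr2b was at 0.87, 1.02 and 0.38, both within 2-fold, although Acvr1 passed it between intestine and stomach with median centring. Tgfbr3, encoding the co-receptor betaglycan, was at −4.26, −3.56 and −4.21. For the TGF-beta receptors the probes disagreed. Tgfbr2 was at 1.17, 1.33 and 2.24, a difference of 1.07 for intestine minus esophagus, but its further probe gave −0.83, and the mean over its probes gave 0.12. Tgfbr1 was at 2.04, 1.66 and 2.47, and for intestine minus stomach its probes gave 0.82 and −1.88. No direction is therefore given for either gene. The counts of genes past 2-fold go by the probe used, and so include Tgfbr2 for intestine minus esophagus.

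The Smads gave 0 of 7 genes at least 2-fold apart in each comparison, a count too small to set apart from the 9.85%, 19.9% and 12% of all genes that lay past 2-fold in stomach minus esophagus, intestine minus esophagus and intestine minus stomach. Their differences ranged from −0.55 to 0.69. Smad4, the shared partner, was at 3.99 in esophagus, 4.18 in stomach and 4.12 in intestine. Of the BMP-responsive Smads, Smad1 was at 3.65, 3.64 and 3.10, and Smad5 was at 3.25, 3.62 and 3.85. The TGF-beta and activin responsive Smad2 was at 0.85, 1.14 and 1.54, and Smad3 was at 0.52, 0.19 and 0.58. The inhibitory Smad6 was at −0.84, −0.41 and −0.39, and Smad7 was at 0.91, 0.42 and 0.80. Further probes of Smad3 and Smad5 gave −1.76 and −1.11 for intestine minus esophagus, so the flat result for these genes rests on the probe with the highest signal. With median centring, Smad2 and Smad5 passed 2-fold in that comparison.

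Among the targets, Id4 and Msx1 were highest in stomach and Msx2 was lowest in intestine. Id genes encode helix-loop-helix proteins without a DNA-binding domain, and Msx genes encode homeodomain repressors that BMP signalling induces in many tissues. Id4 was at −0.54 in esophagus, 0.58 in stomach and −1.18 in intestine, with stomach 2.17-fold above esophagus and 3.39-fold above intestine. Its further probe gave 1.12 for stomach minus esophagus and −1.68 for intestine minus stomach. Msx1 was at −2.76, −1.38 and −2.39, with stomach 2.60-fold above esophagus and 2.01-fold above intestine. Msx2 was at −3.19, −3.80 and −5.45, so intestine was 4.80-fold below esophagus and 3.14-fold below stomach, and the part of the esophagus-high heart, lung and skeletal muscle markers was not tested. Its intestinal signal was low, at 2.29% of the 75th percentile. The intestine minus esophagus difference of Msx2 was −1.55 after normexp correction, −1.77 with median centring and −1.74 with quantile normalization, within 4-fold. After normexp correction the stomach minus esophagus values were 0.77 for Id4 and 0.91 for Msx1, within 2-fold. The intestine minus stomach difference of Msx1, −1.01, was −0.72 with median centring.

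The direct BMP targets Id1, Id2 and Id3 did not reach 2-fold in any comparison. Id1 was at 2.29, 2.79 and 2.04, and its lowest and highest differences were −0.75 and 0.50. The further probe of Id1 gave 0.94 for stomach minus esophagus, close to 2-fold. For intestine minus esophagus it gave 0.26, where the probe used gave −0.25. Id2 was at 3.85, 4.11 and 4.39, and Id3 was at 3.79, 3.57 and 3.72, a range smaller than the spread between probes. Tgfbi, an extracellular matrix protein gene named for its induction by TGF-beta, was at 4.53, 5.14 and 5.41. With median centring, Id2 and Tgfbi passed 2-fold for intestine minus esophagus. The sum of 5 gut epithelial markers was 95.4 in stomach against 36.7 in esophagus and 46.2 in intestine. Of these markers Krt8 and Krt18 were highest in stomach, Cdh1 and Foxa2 in esophagus and Epcam in intestine, and the share of epithelium was not tested for Id4, Msx1 or Bmp7.

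The sequence before the start of these 3 targets is shown because they were the target genes that differed between organs, followed by Inhba and Inhbb, the ligands with the largest differences, which were chosen after their values were seen. Each is the 250 bases upstream of the annotated start, 5′ to 3′ on the gene's strand, from RefSeq. Capitals mark GGCGCC, a core of BMP-responsive elements, and CAGAC, a core of TGF-beta-responsive elements, searched on both strands; the motifs can overlap by 1 base.
Id4, GRCm38.p6, chr13:48260866-48261115, plus strand: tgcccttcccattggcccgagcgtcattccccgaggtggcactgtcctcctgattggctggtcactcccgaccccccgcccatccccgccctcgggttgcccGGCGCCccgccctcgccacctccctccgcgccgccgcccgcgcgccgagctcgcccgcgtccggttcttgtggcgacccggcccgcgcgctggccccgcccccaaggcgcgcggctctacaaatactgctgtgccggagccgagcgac
Msx1, GRCm38.p6, chr5:37824586-37824835, minus strand: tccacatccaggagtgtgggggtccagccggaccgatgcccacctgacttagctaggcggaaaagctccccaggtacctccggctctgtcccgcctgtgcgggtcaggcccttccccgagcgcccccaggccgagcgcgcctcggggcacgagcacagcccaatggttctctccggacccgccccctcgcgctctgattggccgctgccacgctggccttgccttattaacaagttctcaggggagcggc
Msx2, GRCm38.p6, chr13:53472781-53473030, minus strand: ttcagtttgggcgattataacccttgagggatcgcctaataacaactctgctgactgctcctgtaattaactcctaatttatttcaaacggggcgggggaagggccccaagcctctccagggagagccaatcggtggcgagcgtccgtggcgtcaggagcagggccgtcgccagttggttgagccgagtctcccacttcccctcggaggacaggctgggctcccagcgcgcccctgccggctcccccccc
Inhba, GRCm38.p6, chr13:16011601-16011850, plus strand: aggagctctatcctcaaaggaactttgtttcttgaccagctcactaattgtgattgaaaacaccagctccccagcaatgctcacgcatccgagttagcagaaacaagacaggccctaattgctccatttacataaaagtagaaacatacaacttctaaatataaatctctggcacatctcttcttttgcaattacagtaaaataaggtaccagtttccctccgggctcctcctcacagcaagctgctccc
Inhbb, GRCm38.p6, chr1:119422249-119422498, minus strand: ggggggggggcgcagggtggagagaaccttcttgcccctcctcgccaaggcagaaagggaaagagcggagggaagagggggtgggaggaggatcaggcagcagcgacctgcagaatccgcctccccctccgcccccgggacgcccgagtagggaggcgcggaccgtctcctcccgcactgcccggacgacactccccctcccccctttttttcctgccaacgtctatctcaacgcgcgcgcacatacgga

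Of these 5 sequences only that of Id4 holds a match, a GGCGCC. RefSeq promoter entries were found for 32 of the 46 genes, 37 sequences in all. GGCGCC was in 9 of the 37 (24.3%), against 9.59% of all 32851 promoter sequences in the table. CAGAC was in 15 of the 37 (40.5%), against 42.2%. A match describes the letters in this window, and the part of base composition in these shares was not tested; the GC content of the 5 sequences runs from 43.2% (Inhba) to 75.6% (Id4).

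Set against all genes compared, larger shares of the pathway genes lay past 2-fold. The list was chosen with earlier results of these data known, so the larger shares cannot be read as a property of the pathway. Between stomach and esophagus this held for 12 of 46 pathway genes (26.1%), against 9.85% of 13740 genes. Of these, 3 stood higher in stomach (6.52%, against 4.14%) and 9 lower (19.6%, against 5.71%). Between intestine and esophagus it held for 16 of 46 (34.8%), against 19.9% of 14462 genes, with 5 higher in intestine (10.9%, against 8.4%) and 11 lower (23.9%, against 11.5%). The 5 include Tgfbr2, whose probes disagreed in direction. Between intestine and stomach it held for 16 of 46 (34.8%), against 12% of 14384 genes, with 7 higher in intestine (15.2%, against 4.77%) and 9 lower (19.6%, against 7.18%). The shares standing higher than in esophagus lay near the background in stomach and in intestine.

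At the 4-fold limit the counts were small. Between stomach and esophagus 0 of 46 pathway genes stood higher and 5 lower, against 0.684% and 1.58% of all genes and 2.26% either way. The 5 were Bmp2, Bmp3, Inhba, Sostdc1 and Bmper. The Bmp2 value is a bound, and after normexp correction Bmp2 (−0.45) and Bmp3 (−1.004) lay within 4-fold. Between intestine and esophagus 1 stood higher, Fst, and 5 lower, against 1.75% and 3.7% and 5.45% either way. Of these 5, Inhbb was at −1.53 by its further probe. Msx2, also among them, lay within 4-fold after normexp correction, median centring and quantile normalization. Between intestine and stomach 0 stood higher and 2 lower, Inhbb and Sostdc1, against 1.38% and 1.22% and 2.6% either way. The further probe of Inhbb gave −0.55 in that comparison.

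Background correction and centring moved these counts. After normexp correction 1 gene was higher and 5 lower in stomach than in esophagus (against 1.17% and 1.98% of all genes), and 3 were higher and 7 lower in intestine than in stomach (against 1.86% and 12.2%). With median centring the counts of higher and lower genes were 3 and 5, 9 and 9, and 11 and 6 in the order of the comparisons above, against 7% and 4.11%, 25.8% and 6.7%, and 8.63% and 4.11% of all genes. So with median centring the share of pathway genes higher in intestine than in esophagus, 9 of 46, lay below that of all genes. Without a filter on dim probes the pathway counts stayed the same, but the shares of all genes were 5.74% and 6.6%, 9.67% and 18.2%, and 5.7% and 14.9%. The median difference of the pathway genes measured on both arrays was −0.11, −0.02 and −0.05 in that order, against 0.15, 0.12 and −0.04 for all genes. Median centring moved the median of all genes to 0.35, 0.62 and 0.25, and that of the pathway genes to 0.095, 0.47 and 0.23, so the sign of these small medians depends on the scaling. The share of calls standing higher among all genes also moved, from 42.1%, 42.2% and 39.9% to 63%, 79.4% and 67.8% with median centring, to 54.2%, 57.2% and 54.5% with quantile normalization and to 37.2%, 27.3% and 13.3% with normexp correction.

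By role, the BMP ligands had the most genes past 2-fold between intestine and stomach. In that comparison 6 of 8 stood past 2-fold in favour of intestine (Bmp2, Bmp3, Bmp4, Bmp5, Gdf6 and Gdf10) and Bmp7 was lower, but after normexp correction the higher genes were 2, Bmp4 and Gdf6. Between stomach and esophagus 3 of 8 BMP ligands were lower in stomach and 0 were higher. The activin group had 2 of 4 genes lower in each comparison, in every case Inhba and Inhbb. By its further probe Inhbb was within 2-fold in stomach minus esophagus (−0.97) and in intestine minus stomach (−0.55). Of 8 antagonists, 3 were past 2-fold between stomach and esophagus, 4 between intestine and esophagus and 3 between intestine and stomach. The shares of all genes past 2-fold were 9.85%, 19.9% and 12% in these comparisons, and the roles hold too few genes to read more than the counts.

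**Figure D3:**
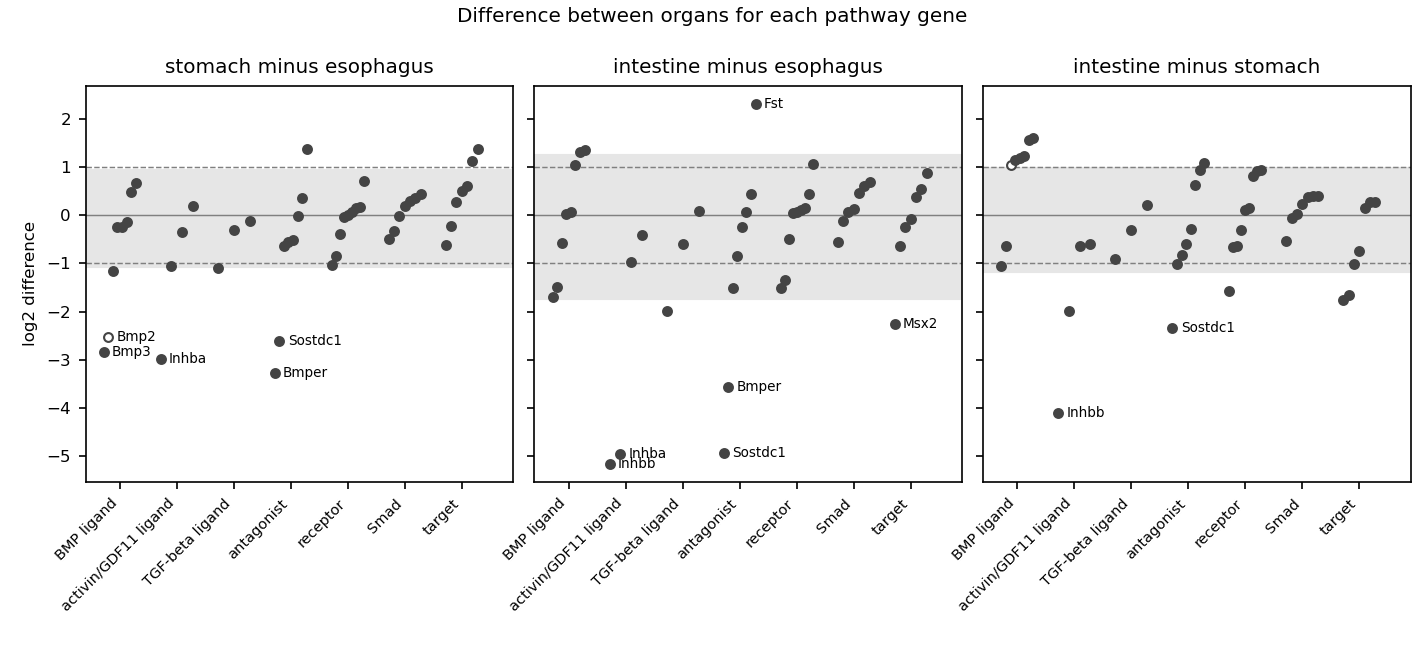
Log2 difference of each pathway gene, by role, in stomach minus esophagus, intestine minus esophagus and intestine minus stomach; each point is 1 gene, open points are bounds, dashed lines mark 2-fold, and grey shading spans the 5th to the 95th percentile of all genes compared. Points at least 4-fold apart are named: Inhba, Sostdc1 and Bmper lie far below the shading against esophagus, and Fst lies above it for intestine minus esophagus.

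Of the 44 differences of at least 2-fold, 25 stayed at least 2-fold under each of the alternatives that gave a value and 42 kept their sign. For the intestine minus stomach differences of Bmp3 and Bmp2 normexp correction ended the call, with −0.39 for Bmp3 and no fold for Bmp2. That correction adds the same offset of 50 on each array, although the 75th percentile of processed signal was 334 in stomach and 1023 in intestine. The part of the offset in these values of dim genes was not tested. The calls of Inhba, Sostdc1 and Fst against esophagus, of Bmper against esophagus, and of Bmp4 and Gdf6 in intestine were among the 25. Apart from Bmper these genes had 1 probe each. The filters, probe mean, kept outlier spots and deposited values hardly changed their differences, so being kept under them is a weak check.

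**Figure D4:**
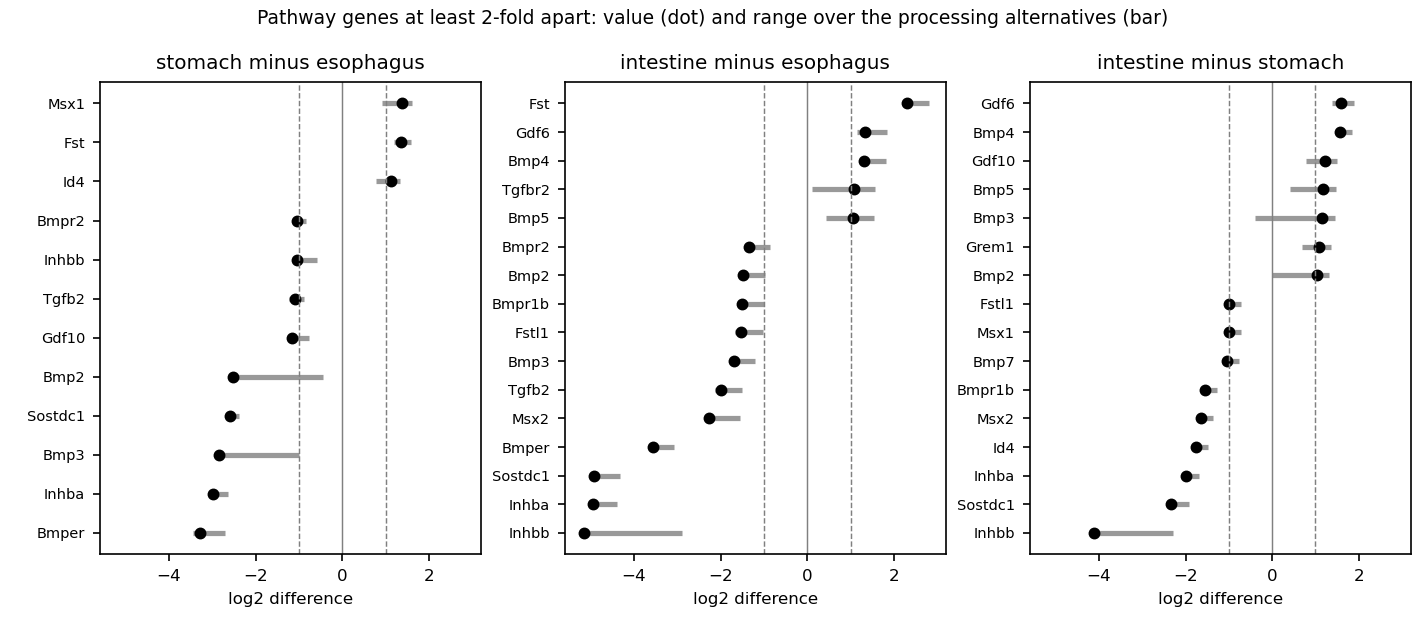
Log2 difference (black point) of each pathway gene at least 2-fold apart in a comparison, with its lowest to highest value over the processing alternatives (grey bar); dashed lines mark 2-fold. The bars of Bmp2, Bmp3 and Inhbb are long, and those of Inhba, Sostdc1, Bmper, Fst, Bmp4 and Gdf6 lie wholly outside the dashed lines in each panel that shows them.

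Other genes of the pathway, from a list of 62 of which 57 had a named probe, are given by their counts. Between stomach and esophagus 0 of 48 compared stood past 2-fold in favour of stomach and 5 in favour of esophagus. Between intestine and esophagus 3 of 51 stood higher in intestine and 11 lower, and between intestine and stomach 4 of 49 stood higher and 8 lower. These make 10.4%, 27.5% and 24.5% past 2-fold, against 9.85%, 19.9% and 12% of all genes, which also held fewer genes higher than lower in each comparison. Nbl1, a secreted BMP antagonist, was lower in intestine than in esophagus by −2.08, and so were Gdf5 (−2.43), a joint-forming BMP ligand, and Smad9 (−2.08), a BMP-responsive Smad.

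The antagonist genes Cer1, Chrdl1 and Vwc2 were well above background in esophagus. Cer1, encoding Cerberus, was at −2.66 there and not well above background elsewhere, which bounds its difference at −3.18 for stomach and −4.29 for intestine. Chrdl1 was at −4.18 in esophagus and bounded at −1.66 and −2.77. Vwc2 was at −2.73 in esophagus, −5.53 in stomach, where it was not well above background, and −5.28 in intestine. After normexp correction the stomach minus esophagus differences of these dim genes were smaller, with −0.73 for Cer1, −0.12 for Chrdl1 and −0.60 for Vwc2.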

How the data were processed

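Signals were read from the deposited Agilent Feature Extraction 10.5.1.1 files, whose processed signal is an intensity after background subtraction and detrending, unscaled between arrays, per the file headers. Median spot and background intensities from the same deposited files served normexp correction (limma 3.58.1, offset 50). The deposited value table holds log2 values; set against the scanner files these are relative to the 75th percentile, not centred per probe, plus 1 constant per array, with medians of −2.97, −3.17 and −3.47 in esophagus, stomach and intestine.

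Control spots and 70 to 111 outlier spots per array were left out, and 0 spots were saturated. The value is log2 signal minus the array's 75th percentile (signals of 393, 334 and 1023), averaged over the spots of a probe. Probes were named by accession through RefSeq transcripts of GRCm38.p6; the array was designed on mm8, so positions are given only for the RefSeq upstream sequences, in GRCm38.p6. The probe with the highest mean stood for a gene. A gene was compared where more spots than not were well above background on at least 1 array of the pair; on 1 only, the difference is a bound, taken from the dim array's own level or from its lowest level well above background, whichever was greater. All 46 genes could be named by rule, as could listed markers and other pathway genes at least 4-fold apart, of which 1 is not reported here. Members and lists were chosen with earlier results of these data known. The arrays share 1 slide. The steps were tested on simulated data. Python 3.11.15 and pandas 2.3.3 were used. Protein sequences were not used here.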

Additional observations from a re-analysis of the deposited data

How the results depend on the processing

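No paired analysis was possible because each organ has 1 array and the groups share only replicate number 1. For the same reason no array could be left out. Of the recomputed counts and medians, 59 lay within the limits set (1.5 times for a count, the spread between spots for a median) and 13 did not. After normexp correction, stomach minus esophagus had 1 pathway gene higher and 5 lower, intestine minus stomach had 3 higher, the medians were −0.28 for intestine minus esophagus and −0.22 for intestine minus stomach, and Bmp3 turned to −0.39 in intestine minus stomach. With median centring, 5 genes were lower in stomach minus esophagus, 9 higher in intestine minus esophagus and 11 higher in intestine minus stomach, and the medians were 0.095, 0.47 and 0.23 in the order of the comparisons. With the mean over all probes of a gene, the medians were −0.22 for intestine minus esophagus and −0.30 for intestine minus stomach. The cause was not tested. Of the recomputed differences of single genes, 1002 moved by less than the spread between probes, 99 moved by more and 1, that of Bmp3 just given, reversed. The filters, kept outlier spots and deposited values hardly change most differences, so many of the 1002 are a weak check. Median centring shifts every gene of a comparison by the same amount, so its entries in these counts are not separate checks. Among the 99, several small differences also turned sign. With normexp correction these included Bmp6 and Tgfbr3 in intestine minus esophagus and Acvr2a in intestine minus stomach. With median centring they included Inha, Chrd, Smad7, Id1 and Id3 in intestine minus esophagus. Quantile normalization, kept outlier spots, the deposited values and either filter on dim probes moved no count of pathway genes by over 1.5 times. Low signal limits the differences of Bmp2, Bmp3, Inhbb and Msx2, and disagreeing probes those of Inhbb, Smad3, Smad5, Tgfbr1 and Tgfbr2. Inhba, Sostdc1, Fst, Bmp2, Bmp3, Bmp4, Gdf6, Tgfb2 and Msx2 had 1 probe each, so agreement between probes could not be checked for them.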
